A study of Mus musculus with 6 samples.

Results

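The guanylate-binding proteins are large GTPases of the dynamin superfamily, and 10 of their mouse genes were followed here through RNA sequencing of CD8+ T cells that had been exposed to the fatty acid palmitate. The genes were Gbp2b, Gbp2, Gbp3, Gbp5 and Gbp7, which lie together on chromosome 3, and Gbp4, Gbp6, Gbp8, Gbp9 and Gbp11, which lie together on chromosome 5. They are 10 of 35308 genes with a transcript in the data. They were chosen by name with the palmitate and control read counts of these same libraries already known. Their differences between the groups are therefore given as a description, without a test. The cells were wild-type CD8+ T cells taken from pancreas, spleen and lymph nodes and kept in complete T cell medium. The 3 palmitate libraries came from cells given 100 μM palmitate for 48 h, and the 3 control libraries from cells labelled as controls for the same 48 h. The labels of all 6 libraries carry the same palmitate note, so the vehicle or supplement of the controls is unknown. They name no separate animals or cultures for the libraries, and p-values therefore measure only how these libraries spread, possibly for technical reasons.

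Guanylate-binding proteins are among the most strongly interferon-induced proteins of a cell. Interferon gamma, which CD8+ T cells themselves secrete, acts through its receptor and Janus kinases to switch on IRF1, which then acts on the promoters of these genes. The proteins bind GTP, join into larger assemblies and coat the vacuoles or outer membranes of intracellular bacteria and parasites. Some members carry a C-terminal CaaX box to which a lipid is attached, and Gbp2, Gbp5 and Gbp2b are known for it. In T cells their transcripts serve as a common readout of interferon signalling.

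The promoter letters are shown because interferon acts on these genes through short motifs. RefSeq promoter sequences (build GRCm38.p6, plus strand, 250 bases upstream of a start site searched) were found for 5 of the 10 members, all of the chromosome 3 group. Both strands were searched for the gamma-activated site TTCNNNGAA and for the core of the interferon-stimulated response element, GAAA and GAAA with 2 bases of any kind between them, to which IRF proteins bind. On the strand printed the core reads TTTC, 2 bases, TTTC. The stretches with matches were chr3:142594650-142594729 for Gbp2b, chr3:142620544-142620613 for Gbp2, chr3:142559939-142560024 for Gbp3, chr3:142496684-142496899 for Gbp5 and chr3:142530170-142530302 for Gbp7. They lie upstream of the RefSeq start, except that the last 12 bases of the Gbp2 stretch fall in a first exon of the GENCODE annotation. Capitals mark the matches.
Gbp2b: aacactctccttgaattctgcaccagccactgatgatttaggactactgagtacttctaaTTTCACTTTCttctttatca
Gbp2: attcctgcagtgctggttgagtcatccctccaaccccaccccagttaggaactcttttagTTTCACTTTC
Gbp3: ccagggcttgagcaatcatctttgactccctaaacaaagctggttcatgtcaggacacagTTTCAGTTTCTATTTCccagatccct
Gbp5: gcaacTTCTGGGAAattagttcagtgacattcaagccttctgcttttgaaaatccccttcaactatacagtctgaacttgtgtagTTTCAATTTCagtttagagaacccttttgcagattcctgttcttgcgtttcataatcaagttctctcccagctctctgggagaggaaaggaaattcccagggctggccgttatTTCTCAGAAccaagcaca
Gbp7: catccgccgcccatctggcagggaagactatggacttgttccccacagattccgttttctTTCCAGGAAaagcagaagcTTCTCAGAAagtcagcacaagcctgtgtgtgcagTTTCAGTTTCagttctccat

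The response element core was present upstream of all 5 genes, in 5 of their 6 annotated start sites, whereas 2.98% of 32851 mouse promoters of the same length held it. Gbp2 and Gbp2b carried the identical run TTTCACTTTC, 50 to 59 bases before the start of Gbp2 and 128 to 137 bases before that of Gbp2b. Gbp7 and Gbp3 shared the run TTTCAGTTTC. In Gbp3 this run overlapped a second core by 4 bases. The gamma-activated site was found in 2 of the 5 genes, at 2 places each, in Gbp5 and in Gbp7, and 7.02% of all promoters held it. Gbp5 and Gbp7 shared the run TTCTCAGAA. Promoters with both motifs made up 0.332% of the total. No gamma-activated site overlapped a response element core, and a match is a description of letters, not of a bound site. By sequence, the Gbp3 start site with the core was matched only to transcript ENSMUST00000199325, which had 0.531% of the gene's reads. The Gbp7 start site was matched to no annotated transcript. For these 2 genes it is thus not established that the measured transcripts start at these sites.

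Read depth ran from 18404832 to 32321905 reads per library, with the 3 palmitate libraries the shallowest. Markers of CD8+ T cells were abundant in all 6 libraries, where their 10 genes summed to 2188 to 2662 CPM (reads scaled to library size, not to gene length) in controls and 2890 to 3274 CPM with palmitate. Of these 10 genes, 6 rose by edgeR's quasi-likelihood test, among them Cd8a and the Cd3 chains, and the count was 2 without control 3, 3 without control 2 and 4 without palmitate 1 or palmitate 3, each left out alone. Of 13088 genes tested across the transcriptome, 3371 (25.8%) passed at an adjusted p under 0.05, 1600 of them higher with palmitate (12.2%) and 1771 lower (13.5%). Under upper-quartile scaling 1954 were higher and 1318 lower, a share of 59.7% higher in place of 47.5%. The labels number the replicates, and whether equal numbers mark pairs was judged only from the data. With the number as a block 5065 genes passed (38.7%), 2462 higher (18.8%) and 2603 lower (19.9%). Without control 3, the call was made for 1305 genes. The count was 2033 without control 2, 2051 without palmitate 1, 2025 without palmitate 3 and 2247 without palmitate 2. In bulk RNA a larger share of cells of one type and more RNA per cell cannot be told apart.

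Compared in TPM, the unit of the Salmon tables that corrects for transcript length and library depth, Gbp2 was the most abundant member in both groups and held 37.9% to 47.0% of the family's TPM in each library. Its level was 195 ± 80.9 TPM in controls and 363 ± 53.9 TPM with palmitate (SD, n = 3 here and below). In control cells Gbp6 at 74.5 TPM and Gbp4 at 65.5 TPM came next, with overlapping library ranges. Gbp7 at 33.8, Gbp9 at 28.2 and Gbp5 at 26.0 TPM followed, each overlapping its neighbour. Gbp3 at 19.1, Gbp8 at 8.29, Gbp11 at 1.96 and Gbp2b at 0.0952 TPM closed the order, each range clear of the one above. With palmitate, Gbp4 at 156 TPM and Gbp6 at 149 TPM overlapped in second place, Gbp9 at 57.8 and Gbp7 at 57.4 TPM overlapped behind them, and Gbp5 at 37.7 TPM overlapped Gbp3 at 32.0 TPM. Gbp8 at 23.4, Gbp11 at 8.01 and Gbp2b at 0.0842 TPM again stood apart. The sum of all 10 was 453 ± 138 TPM in controls and 884 ± 89.4 TPM with palmitate. These levels count all annotated transcripts of a gene, coding or not. On coding forms alone Gbp4 was at 26.2 TPM in controls, below Gbp6 at 50.7 TPM and overlapping Gbp7 at 33.8 TPM. With palmitate it was at 61.4 TPM on coding forms, below Gbp6 at 106 TPM. The division of Gbp4 reads among its forms is uncertain, as described below.

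**Figure D1:**
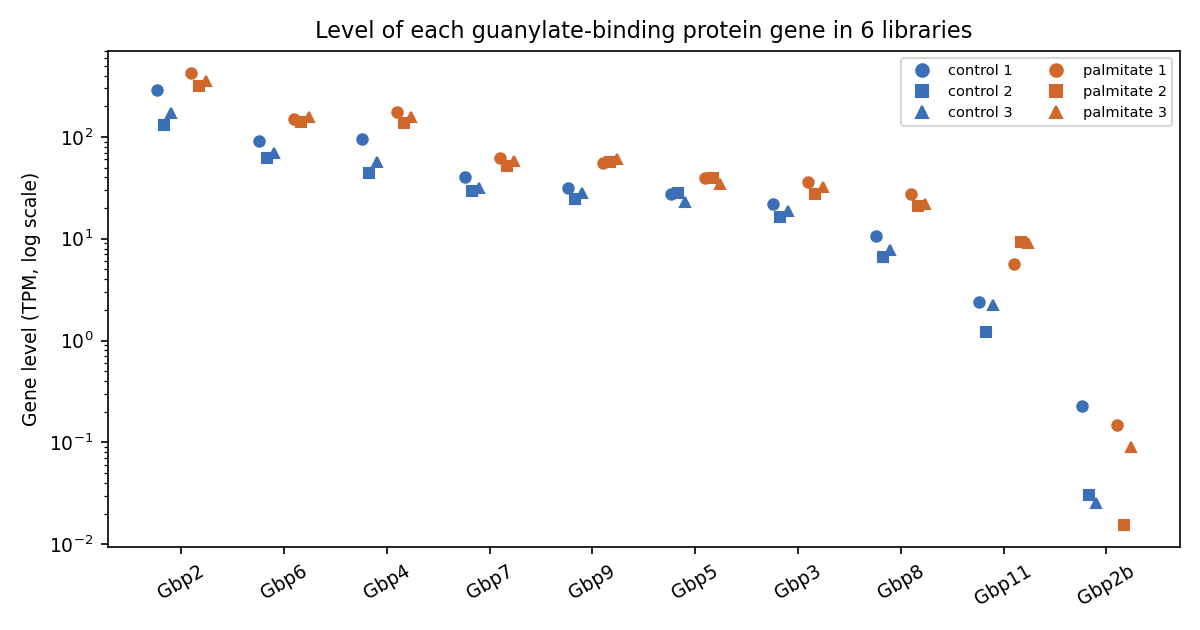
Level of each guanylate-binding protein gene in TPM on a log axis, summed over all its annotated transcripts. Points stand for libraries, 1 for each of the 3 control and 3 palmitate libraries. Gbp2 lies highest at 195 TPM in controls and 363 TPM with palmitate, and Gbp2b lowest at 0.0952 and 0.0842 TPM.

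Differences between the groups are given in CPM on library sizes scaled by the TMM method, with log2 fold changes of palmitate over control and their standard errors (SE) from the fit across all genes. Of the 10 members 9 passed the filter on low counts. In these 9 genes the lowest palmitate library lay above the highest control library, a pattern that 21.8% of the 13088 tested genes showed. Since the genes were chosen with this contrast in view, nothing is read from that count. Gbp2b had 17, 2 and 2 reads in controls 1, 2 and 3 and 9, 1 and 4 reads in palmitate 1, 2 and 3. Its reads were too few for a fold change.

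Among the lipid-anchored members, Gbp2 was at 605, 281 and 381 CPM in controls 1, 2 and 3 and at 843, 650.3 and 770.0 CPM in palmitate 1, 2 and 3. Control 1 stood close to the lowest palmitate library while control 2 was the lowest of the 6, so the control spread was wide. The means were 422 ± 166 and 755 ± 97.4 CPM, a log2 fold change of 0.84 ± 0.28 (SE). Gbp5, which promotes assembly of the NLRP3 inflammasome in macrophages, was at 68.7, 71.7 and 59.7 CPM in controls and at 93.9, 97.6 and 89.1 CPM with palmitate. Its libraries were the tightest of the family within each group, and its log2 fold change of 0.49 ± 0.08 was the lowest of the 9.

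The remaining chromosome 3 members were Gbp3 and Gbp7, which, like Gbp6 and Gbp9, move to the vacuole of Toxoplasma in interferon-treated cells. Gbp3 was at 49.8, 36.5 and 41.7 CPM in controls and at 74.3, 58.5 and 71.6 CPM with palmitate, with a log2 fold change of 0.67 ± 0.13. Gbp7, which delivers components of the NADPH oxidase and of autophagy to vacuoles of intracellular pathogens, was at 153, 126 and 131 CPM in controls and at 234, 187 and 231 CPM with palmitate. Its log2 fold change was 0.67 ± 0.11. In both genes control 1 was the highest control and palmitate 2 the lowest palmitate library.

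On chromosome 5, Gbp4, an inhibitor of the interferon regulatory factor IRF7, was at 217, 107 and 149 CPM in controls and at 395, 319.6 and 384 CPM with palmitate. Control 1 was again the highest control, and the log2 fold change was 1.22 ± 0.25. Gbp6 was at 227, 164 and 189 CPM in controls and at 357, 334 and 396 CPM with palmitate, a log2 fold change of 0.91 ± 0.12. Gbp9 was at 97.4, 78.5 and 90.4 CPM in controls and at 160.5, 166 and 185 CPM with palmitate, and its log2 fold change was 0.94 ± 0.09. Its groups were far apart relative to their spread, at 88.8 ± 9.58 and 170.5 ± 12.8 CPM.

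The low-abundance chromosome 5 members had the largest ratios of the 9. Gbp8 was at 22.7, 13.9 and 17.6 CPM in controls and at 56.1, 44.4 and 48.1 CPM with palmitate, with a log2 fold change of 1.45 ± 0.18. Gbp11 was at 5.46, 2.84 and 5.38 CPM in controls and at 12.1, 20.7 and 20.9 CPM with palmitate, with a log2 fold change of 1.96 ± 0.31. Palmitate 1 was the lowest palmitate library for Gbp11 and Gbp9, whereas it was the highest for Gbp2, Gbp3, Gbp4, Gbp7 and Gbp8. GENCODE lists Gbp11 as a polymorphic pseudogene, so its reads do not stand for a protein in every strain. The log2 fold changes of the chromosome 3 members ran from 0.49 to 0.84 with a median of 0.67 over the 4 that passed the filter. Those of the 5 chromosome 5 members ran from 0.91 to 1.96 with a median of 1.22. This separation held for all 6 libraries but not without control 1, where Gbp2 at 1.19 lay above Gbp6 at 1.04 and Gbp9 at 1.02, nor in the deposited matrix, where Gbp2 at 0.85 lay above Gbp9 at 0.74. Over all tested genes the median was 0.02.

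**Figure D2:**
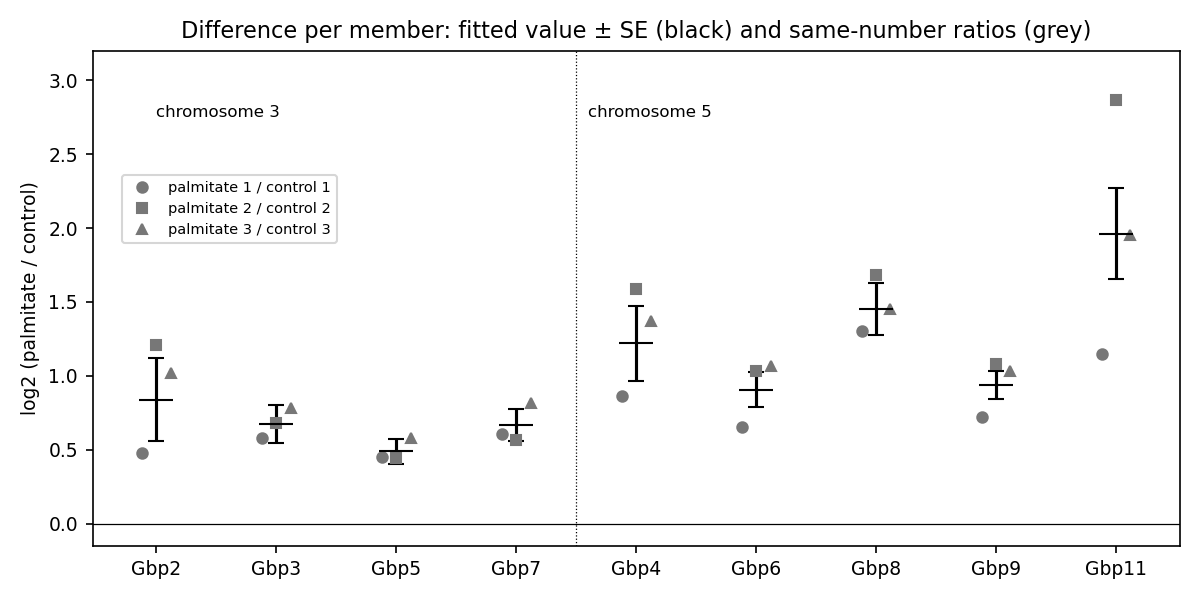
Log2 ratio of palmitate to control for each of the 9 members that passed the filter, with the fitted log2 fold change and its SE and the ratios of the same-numbered libraries as points. All lie above 0. The fitted values run from 0.91 to 1.96 for chromosome 5 and from 0.49 to 0.84 for chromosome 3, while the same-number ratios of the groups overlap (Gbp2 at 1.21 and 1.02, Gbp6 at 0.65).

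How far these genes can be told apart by sequence differed. The share of a gene's 31-base stretches that also occur in another gene's transcripts was 74.3% for Gbp6, 34.3% for Gbp11 and 31.1% for Gbp8. It was 18.3% for Gbp9, 14.9% for Gbp4, 14.7% for Gbp7 and at most 5.64% for Gbp2, Gbp2b, Gbp3 and Gbp5. Gbp6 shared 67.8% of its stretches with the predicted gene Gm43302 and 51.4% with Gbp10, a neighbour that is no member here and was singled out after its values were seen. Gbp10 was at 55.3, 40.7 and 45.1 CPM in controls and at 82.5, 105.8 and 118.9 CPM with palmitate. The division of reads among these 3 genes is uncertain, but their sum does not depend on how reads were divided among them. That sum was 240 ± 38.6 CPM in controls and 474 ± 42.0 CPM with palmitate. The sum of Gbp8, Gbp9 and Gbp11 was 111 ± 15.3 CPM in controls and 238 ± 13.9 CPM with palmitate. It still depends on reads divided with genes outside it, as Gbp11 shared 18.2% of its stretches with Gbp4 and Gbp9 shared 8.70% with Gbp6.

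Transcript tables showed which RNA forms the reads were assigned to. In Gbp4, 86.1% of reads were placed on ENSMUST00000196204, annotated as a target of nonsense-mediated decay, and 4.01% on the full-length coding transcript ENSMUST00000100962. The 2 forms have 10 of 11 exons in common and differ by 29 bases in length, and 98.7% of the coding form's 31-base stretches occur in the other. Their division therefore rests on few reads. On ENSMUST00000100962, control 1 had 0 CPM, controls 2 and 3 had 5.19 and 8.82 CPM, and the palmitate libraries had 11.9, 17.7 and 22.7 CPM. Gbp2 and Gbp7 had nearly all of their reads on coding forms.

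Transcripts that keep an intron took part of the reads of Gbp9, Gbp8, Gbp6 and Gbp5. For Gbp9 this share was 37.9%, 22.0% and 28.7% in controls 1, 2 and 3 and 43.9%, 35.5% and 39.5% in palmitate 1, 2 and 3, so control 1 lay within the palmitate range. For Gbp6 it was 13.2%, 9.79% and 11.3% in controls and 17.5%, 14.1% and 13.5% with palmitate, without overlap. For Gbp8 the shares were 30.9%, 18.8% and 24.3% in controls and 31.8%, 29.1% and 28.6% with palmitate, and for Gbp5 they were 11.5%, 4.03% and 6.71% in controls and 11.4%, 9.48% and 9.81% with palmitate, both with overlap. Within Gbp9 the longest coding form, ENSMUST00000031238, was at 34.2 ± 4.12 CPM in controls and 41.4 ± 7.04 CPM with palmitate, with overlapping libraries. The other coding form, ENSMUST00000100961, was at 27.8 ± 5.14 and 61.4 ± 11.3 CPM, and the form with a retained intron, ENSMUST00000196820, at 26.7 ± 9.83 and 67.4 ± 7.51 CPM, neither with overlap. Intron-retaining reads can come from unspliced RNA, and whether its amount differed between the libraries was not tested.

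**Figure D3:**
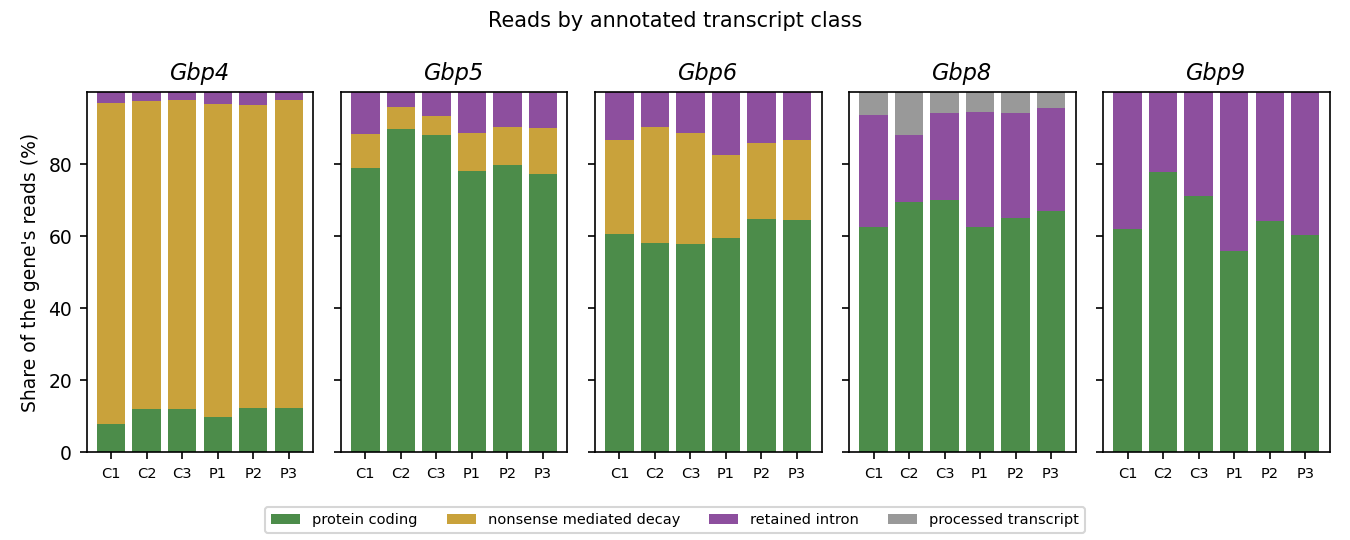
Share of each gene's reads, in percent, assigned to coding, nonsense-mediated decay, retained-intron and other transcripts in each of the 6 libraries for Gbp4, Gbp5, Gbp6, Gbp8 and Gbp9. Gbp4 is dominated by the decay class at 84.0% to 89.1%, and Gbp9 has the largest retained-intron share at 22.0% to 43.9%.

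The deposited gene matrix does not hold the family as named. It has no row for Gbp5 or Gbp6. Its row under the identifier of Gbp2b, ENSMUSG00000040264, equalled in all 6 libraries the sum of the Gbp2b transcript and the main Gbp5 transcript, ENSMUST00000090127, to within 0.423 reads. Read as Gbp2b, it would show a log2 fold change of 0.38 ± 0.09 (SE) for a gene that had at most 17 reads in a library. The Gbp4 row held only ENSMUST00000100962 and gave 1.92 ± 1.18 where all transcripts gave 1.22 ± 0.25. The Gbp9 row left out the retained-intron form and gave 0.74 ± 0.09 where all transcripts gave 0.94 ± 0.09. The Gbp8 row held only its main coding form and gave 1.42 ± 0.15. The rows of Gbp2, Gbp3, Gbp7 and Gbp11 held nearly all reads of their genes.

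Interferon gamma itself did not follow the family. Ifng was at 1227, 3233 and 2259 CPM in controls 1, 2 and 3 and at 772, 1329 and 1013 CPM in palmitate 1, 2 and 3, and control 1 lay below palmitate 2. Its log2 fold change was -1.11 ± 0.40 (SE), with an adjusted p of 0.0998 in edgeR's quasi-likelihood test. With the replicate number as a block it was -1.04 with an adjusted p of 4.29e-04 in edgeR, and the call was also made without control 1 (adjusted p = 0.017 in edgeR), by DESeq2 (adjusted p = 0.0399) and by limma-voom (adjusted p = 0.0487). Over the alternatives the adjusted p ran from 4.29e-04 to 0.232. Within the controls Ifng ran from library 2 through 3 down to 1, and in 8 of the 9 members the order was the reverse, from 1 through 3 down to 2. Within the palmitate libraries 5 of the 9 members, Gbp2, Gbp3, Gbp4, Gbp7 and Gbp8, had the reverse of the order of Ifng. In those 5 the library with the least Ifng thus had the most transcript in both groups. With 3 libraries a group these orders are a description, and the share of all tested genes with them was not counted. The members are not treated as independent cases. Among the CD8+ T cell markers, Cd8a, at 438, 283 and 351 CPM in controls 1, 2 and 3, had the members' control order. So did Cd8b1, Cd3d, Cd3g, Trac and Lck. Cd3e, at 39.3, 35.3 and 34.5 CPM, did not, nor did Cd247, Trbc1 and Trbc2. Control 2 was the lowest control in all of these markers but Cd3e.

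**Figure D4:**
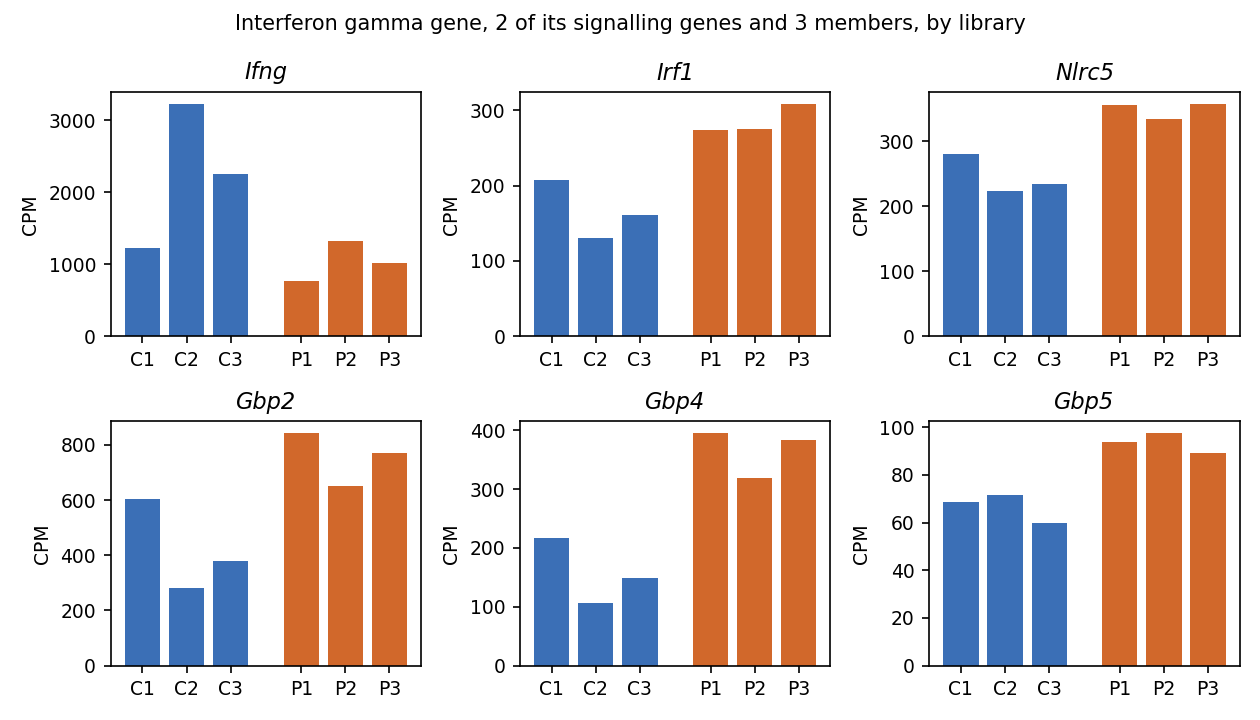
Bars give the CPM of Ifng, Irf1, Nlrc5, Gbp2, Gbp4 and Gbp5 in controls 1 to 3 (C1 to C3) and palmitate 1 to 3 (P1 to P3), 1 bar per library, on axes from 0. Control 2, at 3233 CPM of Ifng, has the lowest Gbp2 level of the 6 libraries at 281 CPM, and palmitate 1, at 772 CPM of Ifng, the highest at 843 CPM.

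The pathway between the cytokine and the family was followed in a list of 19 signalling genes, all of which could be tested. By edgeR's quasi-likelihood test 8 rose and 2 fell with palmitate, and the median log2 fold change was 0.32 against 0.02 for all genes. Among all tested genes 12.2% were called higher and 13.5% lower. Sizes of change from here on are log2 fold changes of palmitate over control ± SE. Irf1, a transcription factor induced by interferon gamma, was at 207, 131 and 161 CPM in controls and at 274, 275 and 309 CPM with palmitate, and it rose by 0.78 ± 0.15 (adjusted p = 0.0101 in edgeR). Nlrc5, the activator of MHC class I genes, rose by 0.50 ± 0.10, Pias1, a SUMO ligase gene, by 0.46 ± 0.09, and the phosphatase gene Ptpn6 by 0.32 ± 0.06. In the deposited matrix Nlrc5 was at 0.24 and lost its call (adjusted p = 0.186 in edgeR), and with length offsets Ptpn6 lost its call (adjusted p = 0.0737 in edgeR). Irf9 at 0.42 ± 0.09, Socs1 at 0.42 ± 0.10 and Irf2 at 0.56 ± 0.14 also rose. Irf9 lost its call without palmitate 3 (adjusted p 0.0516 in edgeR), Socs1 without control 3 or palmitate 3 (0.0547 to 0.0569), and Irf2 without control 3, palmitate 1 or palmitate 2 (0.0566 to 0.0792). The deposited matrix gave Irf2 a value of -0.23 that did not pass (adjusted p = 0.626 in edgeR). The falls were of Stat3, at -0.42 ± 0.13 with overlapping libraries, and of the phosphatase gene Ptpn2, at -0.43 ± 0.12. Both calls were lost without any one of the libraries other than control 1, with adjusted p in edgeR of 0.0572 to 0.141 for Stat3 and 0.0537 to 0.118 for Ptpn2. The Stat3 call was also lost under upper-quartile scaling, the filter at 5 CPM, limma-voom and the deposited matrix. Without control 3 the list had 4 calls in place of 10, with Irf1 and Ptpn6 both at an adjusted p of 0.0501 in edgeR, and without palmitate 3 it had 6. With the replicate number as a block it had 12 higher and 5 lower, beside 18.8% and 19.9% of all tested genes.

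Other genes that interferon gamma induces moved less uniformly. Of 30 listed, 26 could be tested, and 6 rose (Cd274, Tap1, Tap2, Tapbp, B2m and Ly6e) while 2 fell (Nmi and Lap3). With the replicate number as a block 10 were higher and 2 lower. The list's median log2 fold change was 0.18. The shares of all tested genes called higher and lower were 12.2% and 13.5%, or 18.8% and 19.9% with the block. Of the 6, Tap1, Tap2, Tapbp and B2m serve peptide loading on MHC class I. Cd274, which encodes the checkpoint ligand PD-L1, rose by 0.65 ± 0.09 (adjusted p = 0.00223 in edgeR), and Lap3, a leucine aminopeptidase, changed by -0.52 ± 0.08 (adjusted p = 0.00343 in edgeR). B2m rose by 0.31 ± 0.07, a call lost without control 2, control 3 or palmitate 3 at adjusted p values of 0.0543 to 0.0612 in edgeR. Ly6e rose by 0.45 ± 0.11, a call lost without any one of control 2, control 3, palmitate 1 and palmitate 3 (adjusted p 0.0522 to 0.0884 in edgeR). Tap1 and Tapbp lost their calls without control 2, control 3 or palmitate 3 (adjusted p in edgeR 0.0713 to 0.0836 and 0.108 to 0.122), and Tap2 without any one of those libraries or palmitate 1 (0.0887 to 0.142). Nmi lost its call without any one of control 3 and the 3 palmitate libraries (0.0674 to 0.144). With length offsets Tap2 (adjusted p = 0.109 in edgeR) and Tapbp (0.0587) lost theirs. In the deposited matrix Tapbp (0.159), and under upper-quartile scaling Nmi (0.0775), lost theirs. The 8 calls of the list became 4 without control 2, 2 without control 3 and 2 without palmitate 3.

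Among immunity-related GTPases, a second interferon-induced GTPase family that acts on pathogen vacuoles beside the guanylate-binding proteins, 7 of 9 tested genes rose and 0 fell by edgeR (0 at an unadjusted p under 0.05, and 0 by DESeq2 or limma-voom), with a median log2 fold change of 0.45. Irgm2 rose by 0.76 ± 0.11, Tgtp2 by 0.72 ± 0.11, Tgtp1 by 0.66 ± 0.12 and Iigp1 by 0.59 ± 0.10, with adjusted p values of 0.00262 to 0.00694 in edgeR, and each kept its call without any 1 library. Irgm1, Igtp and Ifi47 rose as well, with calls lost in some leave-outs of 1 library by Irgm1 (2 of 6) and Ifi47 (4 of 6). The list had 5 calls without control 3 and 5 without palmitate 3. Over all 6 libraries, 12.2% of all tested genes were called higher.

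Other dynamin-superfamily GTPases, related to the family by structure, were mixed, with 2 of 11 tested genes higher, 3 lower (3 and 4 with the block) and a median log2 fold change of 0.11. Of all tested genes 12.2% were called higher and 13.5% lower (18.8% and 19.9% with the block). Gvin1, an interferon-induced very large GTPase, rose by 0.75 ± 0.10 (adjusted p = 0.00199 in edgeR), and Dnm2, a dynamin of endocytosis, rose by 0.38 ± 0.08. Opa1 and Mfn1, which fuse mitochondria, and Atl2, which fuses endoplasmic reticulum, fell, with Opa1 at -0.27 ± 0.06 and Atl2 at -0.36 ± 0.11. The Atl2 call was lost without any one of the libraries other than control 1 (adjusted p 0.0523 to 0.129 in edgeR). It was also lost under upper-quartile scaling, the filter at 5 CPM, limma-voom, the deposited matrix and length offsets (0.0501 to 0.0796). Mfn1, at -0.32 ± 0.10, lost its call without any one of control 2, control 3, palmitate 1 and palmitate 3 (0.104 to 0.135), and under upper-quartile scaling, the filter at 5 CPM, the deposited matrix and length offsets (0.0579 to 0.170). The Opa1 call was lost without control 3 or palmitate 2 (0.0526 to 0.0572) and the Dnm2 call without control 3 (0.0531).

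Of the 7 genes listed for attaching, trimming or carrying the CaaX lipid anchor, 0 rose by edgeR (0 at an unadjusted p under 0.05, and 0 by DESeq2 or limma-voom) and Icmt, the methyltransferase of the last step, fell, at -0.30 ± 0.08. That call was lost without any one of control 2, control 3, palmitate 2 and palmitate 3 (adjusted p 0.0501 to 0.0839 in edgeR), and under upper-quartile scaling (adjusted p = 0.0528 in edgeR). The prenyltransferase subunit genes Fnta, Fntb and Pggt1b had log2 fold changes of -0.22 ± 0.08, 0.21 ± 0.12 and -0.16 ± 0.11. With the block 2 of the list were lower, Fnta among them (adjusted p = 0.0296 in edgeR), beside 19.9% of all tested genes.

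The ATG8 conjugation system guides guanylate-binding proteins to their target membranes. The list of 13 held genes of that system with the autophagy adaptor Sqstm1 and the ubiquitin ligase gene Traf6. Of the 13, 3 rose and 0 fell by edgeR (2 at an unadjusted p under 0.05, and 0 by DESeq2 or limma-voom), beside 12.2% and 13.5% of all tested genes. Without control 1 the counts were 4 higher and 3 lower, with no filter on low counts 3 and 1, and without control 3 or without palmitate 3 they were 1 and 0. The block gave 4 higher and 2 lower, Gabarapl1 among the lower (adjusted p = 0.0219 in edgeR). Sqstm1 rose by 0.73 ± 0.09 (adjusted p = 0.00154 in edgeR). Map1lc3b rose by 0.36 ± 0.08, lost without control 3 or palmitate 3 (adjusted p 0.0564 to 0.0682 in edgeR) and with length offsets, where it was at 0.23 (adjusted p = 0.103 in edgeR). Gabarap rose by 0.29 ± 0.08, lost without any one of control 2, control 3, palmitate 2 and palmitate 3 (0.0597 to 0.105).

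Of 8 tested inflammasome partners, which the family feeds by exposing bacterial products, 1 rose (12.5%, beside 12.2% of all tested genes) and 1 fell (beside 13.5%). The block gave 3 higher, Gsdmd among them (adjusted p = 0.0185 in edgeR), and 1 lower. Aim2, the DNA sensor, changed by -0.64 ± 0.10 (adjusted p = 0.00329 in edgeR). Ninj1, which ruptures the plasma membrane of dying cells, rose by 0.70 ± 0.16, a call lost without control 3 or palmitate 3 (adjusted p 0.0526 to 0.0707 in edgeR). Il1b was at 0.640 ± 0.208 CPM in controls and 0.301 ± 0.118 CPM with palmitate.

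**Figure D5:**
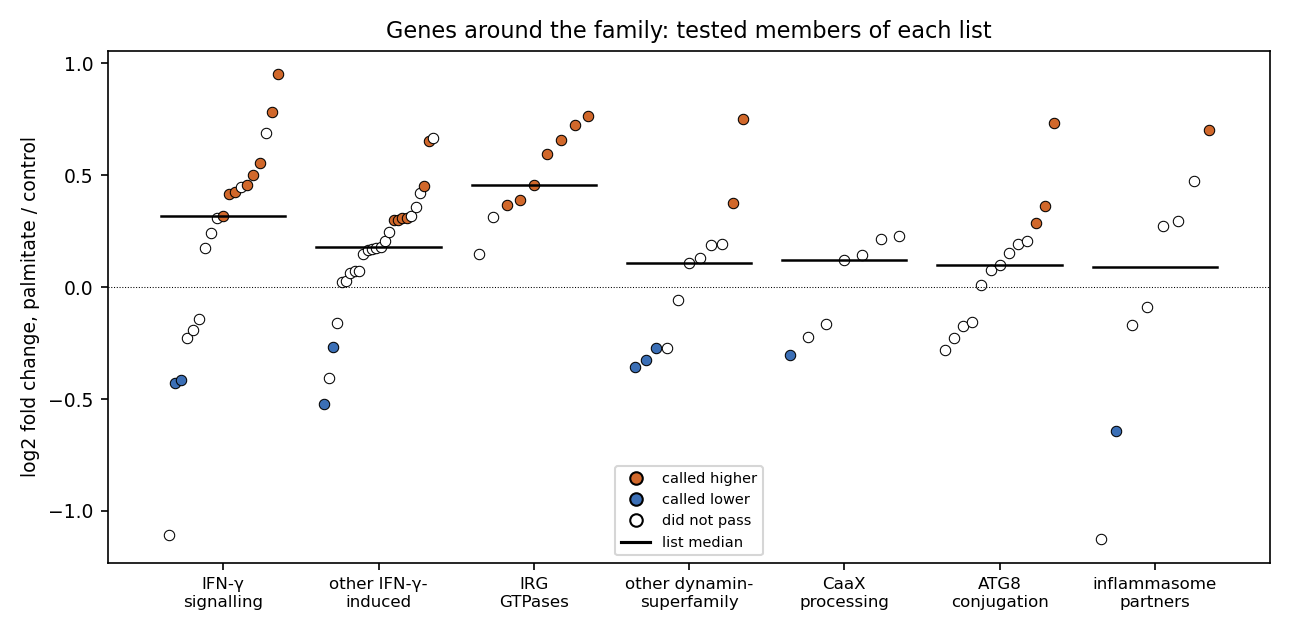
Log2 fold change of palmitate over control for every tested gene of the 7 pathway lists, 1 point per gene, with genes past an adjusted p of 0.05 marked and the list median drawn. Immunity-related GTPases have the highest median at 0.45, ahead of interferon gamma signalling at 0.32, against 0.02 for all tested genes.

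Genes of other cell types were measured beside the family. B and plasma cell markers summed to 162 to 224 CPM in controls and 256 to 291 CPM with palmitate. Ighm made up most of that sum. It was called with the block (adjusted p = 0.00816 in edgeR) but not in the main edgeR test (adjusted p = 0.0708). In the main test 3 of the 12 genes rose, each at a low level. Their control and palmitate means in CPM were 0.193 and 0.758 for Cd79a, 1.63 and 8.86 for Jchain, and 1.72 and 15.8 for Igha. The block gave 6 calls. Leaving out palmitate 1 gave 5, control 1 gave 4, palmitate 3 gave 2 and control 3 gave 1. Beside these and the lists below stand 12.2% of all tested genes called higher and 13.5% lower (18.8% and 19.9% with the block). Macrophage and monocyte markers, cells in which the family is abundant, summed to 7.59 to 9.82 CPM in controls and 8.54 to 12.9 CPM with palmitate, with 0 of 4 tested genes called by edgeR's test (0 at an unadjusted p under 0.05, and 0 by DESeq2, limma-voom or with the block). Dendritic cell markers summed to 26.6 to 41.5 and 20.1 to 37.1 CPM, and CD4 T cell markers to 1.95 to 2.62 and 3.64 to 6.12 CPM. Zbtb7b, 1 of 2 tested CD4 markers, was higher by 1.14 ± 0.29 (adjusted p = 0.0201 in edgeR). That call was lost without control 3, without palmitate 2 and with length offsets (adjusted p 0.0668 to 0.134 in edgeR). NK cell markers summed to 1.00 to 2.66 and 1.71 to 3.64 CPM. Markers of exocrine and islet pancreas summed to 1.29 to 1.91 and 1.42 to 2.61 CPM, and Pnlip, Ins1 and Ins2 had no reads. Endothelial and fibroblast markers, chiefly Pecam1, which T cells also express and which rose by edgeR, summed to 32.9 to 38.5 and 42.6 to 58.1 CPM. The Pecam1 call was lost without any one of control 2, control 3, palmitate 1 and palmitate 3 (adjusted p 0.0564 to 0.0971 in edgeR). It was also lost with length offsets (adjusted p = 0.0535 in edgeR). The part of the B and plasma cell, CD4 T cell and CD8 T cell marker shifts in the family's values was not tested.

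The genes whose library profile lay nearest to that of Gbp2 were sought among 9233 genes as the root mean square difference of centred log2 CPM over the 6 libraries. The 5 nearest were Ass1 at 0.0916, Ctsw at 0.109, Tspan32 at 0.122, Slamf6 at 0.125 and Lax1 at 0.125. Ass1 encodes argininosuccinate synthase, Ctsw a cathepsin of cytotoxic lymphocytes, and Slamf6 and Lax1 lymphocyte surface or adaptor proteins. The distances of Gbp2 from other members ran from 0.191 for Gbp4, 0.208 for Gbp6 and 0.223 for Gbp3 to 0.419 for Gbp5 and 0.669 for Gbp11. The 5 genes above are the closest of 9233, from a search that left out all Gbp genes, while the members were given. Their distances are therefore not ranked against those of the members. The profile of Ass1 was 50.7, 27.0 and 39.2 CPM in controls and 79.2, 64.5 and 72.8 CPM with palmitate. It had the order of the 6 libraries and the low control 2 of Gbp2. That likeness follows from the search, which picked genes by their nearness to Gbp2 in these same libraries.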

How the data were processed

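RNA of 6 mouse CD8+ T cell libraries was purified on RNeasy columns and sequenced from SMARTER mRNA-Seq libraries, per the labels' protocols. Build GRCm39 is named in the submitters' processing notes, which also list Salmon 1.10.0, Trim Galore 0.6.10 and DESeq 1.42.0, and no source used here states the strand setting. The authors deposited per-library Salmon tables with estimated counts and TPM, and a gene matrix of rounded estimated counts with 0 columns outside the 6 libraries. Estimated counts split shared reads by model, so near-identical genes and forms are uncertain.

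Estimated counts were summed per gene through GENCODE M21, which matched 114857 of 116224 transcripts (98.82%) and at least 99.45% of reads per library, and rounded. TPM were summed likewise. Genes passing filterByExpr were tested on group in edgeR 4.0.16 (R 4.3.3; robust quasi-likelihood, TMM, Benjamini-Hochberg over 13088 genes, threshold 0.05, 2-sided). On simulated data with 12919 genes, 88.0% of genes raised by 1 and 72.9% of genes lowered by 1 on the log2 scale were recovered. Same-numbered libraries deviated together (r = 0.33, 0.21 and 0.19, against -0.24 to 0.06 for other pairs). The main test left the replicate number out, and an alternative fit used it as a block. Chi-square per gene between replicates was 9.04 to 35.0, so none was a repeat deposit. Alternatives used RLE and upper-quartile scaling, other filters, DESeq2 1.42.0, limma-voom 3.58.1, the replicate block, the deposited matrix, length offsets and each library left out.

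The text names all 10 members, Ifng and Irf1, up to 4 genes of smallest p per pathway list, the 5 genes nearest Gbp2, and the called genes of a list by name, except that some genes are not reported here. Members and lists were chosen with earlier results of these data known. Promoters of the chromosome 5 members and proteins were not analysed here.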

Additional observations from a re-analysis of the deposited data

How the results depend on the processing

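Over all alternatives that could be fitted, the log2 fold changes of the 9 members kept their direction. They ran from 0.61 (without control 2) to 1.19 (without control 1) for Gbp2, 0.57 to 0.81 for Gbp3, 0.41 to 0.55 for Gbp5, 0.61 to 0.77 for Gbp7, 1.00 to 1.92 for Gbp4, 0.80 to 1.04 for Gbp6, 1.29 to 1.66 for Gbp8, 0.74 to 1.02 for Gbp9 and 1.72 to 2.19 for Gbp11. Of 133 such values, 131 moved by less than the replicate spread. The other 2 were Gbp4 (1.92) and Gbp9 (0.74) in the deposited matrix, which holds only part of their transcripts, and the matrix has no row for Gbp5 or Gbp6. Leaving out 1 of 3 libraries can hardly move a value by more than that spread. The count of 131 is therefore not a measure of stability. The 30 named pathway genes had 38 calls lost, 10 gained and 0 reversed over their alternatives.

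The replicate block raised the genes called to 5065 and the interferon gamma signalling calls to 17, and changed the call of 4 of the 30 named genes (Ifng, Fnta, Gabarapl1 and Gsdmd). Leaving out 1 library gave 1305 to 4181 genes called, 4 to 11 calls in interferon gamma signalling, 2 to 9 among other interferon gamma-induced genes and 8 to 26 in the 5 partner lists. The 18 partner calls became 8 without control 3 and 10 without palmitate 3. The cause was not tested beyond the smaller number of libraries. Gbp2b, at 1 to 17 reads per library, was below what this depth can compare.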
